A study of Mus musculus with 11 samples.

Results

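Gene families that grew by tandem duplication, with near-identical copies lying side by side on a chromosome, were followed through the exome variants of mouse pancreatic tumours. The members were all variant records whose gene symbol begins with Olfr, Vmn1r, Vmn2r, Tas2r, Zfp, Serpinb, Cyp, Ugt, Krt, Pcdh, Muc, H2-, Skint or Speer. A record is 1 variant listed in 1 tumour and 1 gene. The rule found 72 of 739 records, in 53 of 558 genes and in 8 of 11 tumours. Records were found for 8 of the 14 prefixes, and none for Vmn1r, Tas2r, Ugt, H2-, Skint or Speer. The names cover more than tandem clusters, because the Zfp, Cyp, Krt, Muc and Pcdh prefixes also include genes that lie outside such clusters. The prefixes with records that lie in tandem clusters throughout, Olfr, Vmn2r and Serpinb, held 55 of the 72 records. Records of the other prefixes can lie in clusters too, such as that of Pcdha1.

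All tumours were pancreatic ductal adenocarcinomas that began in acinar cells, the enzyme-secreting cells of the pancreas. The 4 KPT tumours carried Rosa26LSL-tdTomato/LSL-tdTomato, Ptf1aCreER and Trp53fl/fl. The 7 KT tumours carried Rosa26LSL-tdTomato/LSL-tdTomato and Ptf1aCreER, with no engineered Trp53 allele named. Both groups also shared a further engineered allele. All mice received 5 mg of tamoxifen by mouth daily for 3 days when they were 8 to 10 weeks old, and were kept until they became ill. Tamoxifen releases the Ptf1a-driven Cre, which acts in acinar cells, so the alleles that depend on Cre were recombined there. The genotypes with floxed Cdkn2a-Arf that the series design names were not analysed here, nor were the engineered loci. Each tumour is 1 sample.

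Olfactory receptors (Olfr) and vomeronasal receptors (Vmn1r, Vmn2r) sense odours and pheromones in the nose, and each olfactory receptor is encoded by a single uninterrupted coding exon in one of many large gene clusters. Clade B serpins (Serpinb) inhibit proteases inside cells, cytochrome P450 enzymes (Cyp) oxidise drugs, steroids and bile acids, and most Zfp genes encode zinc finger proteins that bind DNA. Keratins (Krt) form the filaments of epithelial cells, mucins (Muc) coat their surface, and clustered protocadherins (Pcdh) are adhesion proteins that vary from neuron to neuron. Clustered families of this kind differ in sequence and copy number between mouse strains. Short reads from one copy can also align to another, which is why the authors' mark for poor mappability is given beside the results.

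Coding starts of the reference genome show where changes fell in a pair of olfactory receptors that each held records in the chromosome 9 cluster. They are RefSeq sequence of build GRCm38.p6, each on its gene's own strand from 5′ to 3′, at chr9:39511669-39511718 on the minus strand for Olfr957 and chr9:38268515-38268564 on the plus strand for Olfr895. Capitals mark the ATG start codon and the base that was changed.
Olfr957: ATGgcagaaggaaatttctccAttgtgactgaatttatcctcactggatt
Olfr895: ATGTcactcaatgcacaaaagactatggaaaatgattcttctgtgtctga
In Olfr957, base 22 of the coding sequence shown was changed in KT tumour 1, turning the codon Att into Gtt, which is I8V. In Olfr895, base 4 was changed in KT tumour 3, turning Tca into Cca, which is S2P. Protein positions count from the first residue, with the reference residue given first, and chromosome positions are on mm10 (GRCm38).

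Olfactory receptors supplied most of the family records. Olfr genes held 47 of the 72 family records, or 65.3%, in 33 genes. These came from KT tumours 1, 3, 4 and 5, with 18, 25, 2 and 2 records. The KPT tumours held 0 Olfr records among their 188 records of all genes. That allows a pooled share of up to 1.60% (3 divided by the number of records), for counting error only. The other families held between 1 and 8 records each. Zfp had 8 records in 6 genes, Serpinb 7 in 4, Cyp 5 in 5 and Krt 2 in 2, while Vmn2r, Muc and Pcdh had 1 each.

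**Figure D1:**
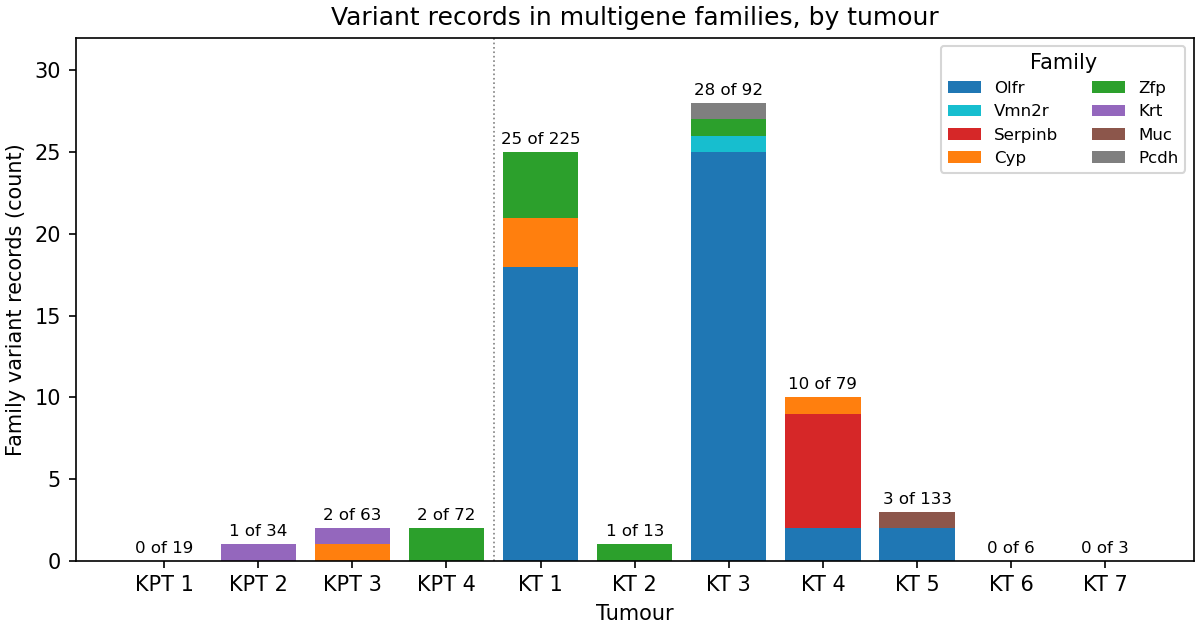
Number of family variant records (vertical axis) in each KPT tumour (left of the dotted line) and KT tumour (right), coloured by family, with the family count and the tumour's count of all records above each bar. Most family records are the olfactory receptor records of KT tumours 1 and 3, which hold 25 and 28 family records, while no KPT tumour holds more than 2.

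Read against the number of genes in the families, the total was not high. RefSeq lists 2310 protein-coding genes with these prefixes, and 52 of them, or 2.25%, had a record. Of the 19586 other coding genes, 491 had one, or 2.51%. Among the families the share was 32 of 1110 Olfr genes (2.88%), 4 of 28 Serpinb genes (14.3%), 5 of 106 Cyp genes (4.72%) and 6 of 400 Zfp genes (1.5%). It was 1 of 124 Vmn2r genes (0.806%) and 0 of 231 Vmn1r genes. These shares are descriptions, since genes of a cluster lie in the same stretches of DNA and are not independent. They count genes, and coding length was not taken into account.

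The olfactory receptor records lay close together. Of the 47, 42 fell on chromosome 9 between positions 37711428 and 39820320, a stretch of 2109 kb. KT tumour 1 held 17 of these in 13 genes and KT tumour 3 held 25 in 17 genes. The 9 other tumours had no record of any gene there. RefSeq places 82 coding genes in the stretch, of which 80 are Olfr genes, and 27 of these 80 (33.8%) had a record in 1 or both tumours. Only 1 record in the stretch belonged to another gene, AW551984 in KT tumour 3.

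No position in the stretch was listed in both tumours. Both had records in 2 genes, Olfr891 and Olfr895. That is 15.4% of the 13 genes of KT tumour 1 and 11.8% of the 17 genes of KT tumour 3. With 80 coding Olfr genes in the stretch, some overlap can arise by chance. Whether 2 shared genes were fewer or more than that was not tested. Ordered along the chromosome, the records changed from one tumour to the other 10 times and so fell into 11 blocks. The block with most records was the 10 of KT tumour 1 in 7 genes from Olfr921 to Olfr957. The next, 8 records in 6 genes from Olfr25 to Olfr916, belonged to KT tumour 3. At their nearest, in Olfr891, records of the different tumours lay 362 bases apart. The authors' table lists no variant as present in more than 1 sample, so a variant common to several tumours would not be seen in it.

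**Figure D2:**
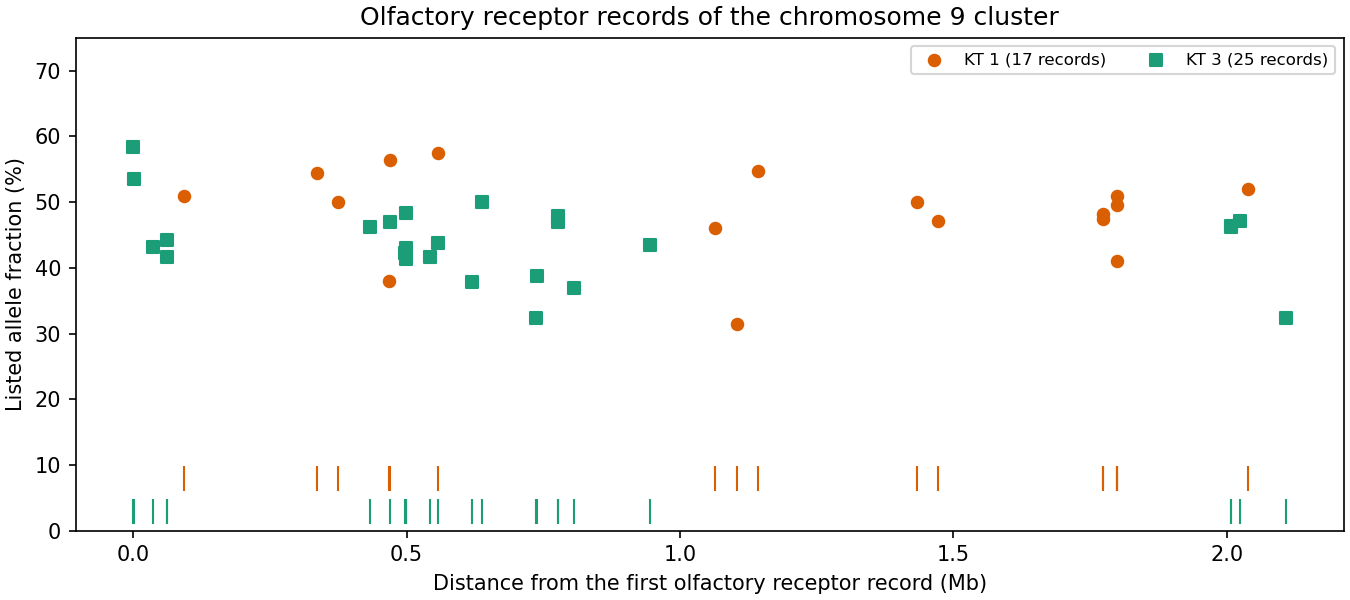
Listed allele fraction (vertical axis, percent) of each olfactory receptor record of the chromosome 9 cluster against its distance from the first of them (horizontal axis, Mb), with circles for KT tumour 1, squares for KT tumour 3 and a tick per record at the bottom. Fractions lie between 31.4% and 58.4%, and the records fall into 11 blocks along the cluster, each from a single tumour.

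In both tumours the variants of the stretch were on fewer reads than the reference base when reads were summed. The listed allele fraction, which the authors' table gives as the estimated portion of DNA with the variant at that position, had a median of 50% in KT tumour 1, with a range of 31.4% to 57.5%. In KT tumour 3 it had a median of 43.8% and a range of 32.4% to 58.4%. Summed over the records, 732 of 1518 reads carried the variant in KT tumour 1 (48.2%) and 986 of 2256 in KT tumour 3 (43.7%). Variant reads were at most 50% of the reads in 10 of 17 records of KT tumour 1 and in 22 of 25 of KT tumour 3. The other chromosome 9 records had median fractions of 47.95% in KT tumour 1 (16 records) and 47.3% in KT tumour 3 (40 records).

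Olfr893 had 4 records, the most of any family gene, all in KT tumour 3 between positions 38209196 and 38209978. M48V was listed at 42.2% on 28 of 66 reads and A121V at 43.0% on 41 of 95 reads. S173L was listed at 48.3% on 59 of 123 reads and N308K at 41.4% on 25 of 59 reads. The 4 fractions spanned 6.90 percentage points, less than the width of the 95% Wilson interval of any of them, such as 39.3% to 56.7% for S173L.

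Olfr957 had 3 records, all in KT tumour 1. I8V, shown above, was on 19 of 38 reads and listed at 49.6%. S53P was on 50 of 94 reads and listed at 51.0%. S235F, at position 39511015, was on 51 of 127 reads and listed at 41.0%, and of the 3 it alone was marked as poorly mappable.

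Olfr891 and Olfr895 were the family genes with records in more than 1 tumour. Olfr891 carried N271K on 20 of 52 reads and I192T on 46 of 82 reads in KT tumour 1. In KT tumour 3 it carried L71F on 26 of 56 reads. Olfr895 carried a frameshift at residue 308 on 27 of 47 reads in KT tumour 1, listed at 57.5%. In KT tumour 3 it carried S2P, shown above, on 26 of 59 reads, listed at 43.8%. The changed residues differed between the tumours in both genes.

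These genes were the only family genes that could be tested between the genotypes. Each had records in 0 of 4 KPT tumours and 2 of 7 KT tumours (two-sided Fisher's exact test p = 0.491, Benjamini-Hochberg adjusted p = 0.859 over all 14 genes of the table with records in at least 2 tumours). Of the 14 genes, 0 passed an adjusted p of 0.05, or 0%, and 0 had an unadjusted p under 0.05 by the same test. All 14 had records in exactly 2 tumours, and the smallest p such a gene can reach here is 0.109. The 51 other family genes had records in a single tumour.

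Truncating changes were few. Olfr884 gained a stop codon at residue 16 (G16*, codon Gga to Tga) on 33 of 60 reads in KT tumour 1, listed at 54.5%. The others were frameshifts, in Olfr895 at residue 308 and in Zfp957 at residue 293, and the length of protein lost was not assessed. Missense changes were 45 of the 47 Olfr records (95.7%), 23 of the 25 records of the other families (92%) and 634 of the 667 records outside the families (95.1%).

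The missense changes in olfactory receptors were spread over the protein, at residues 2 to 311 with a median of 146. Among the 45, the changed base was the second of its codon in 24 (53.3%), the first in 16 (35.6%) and the last in 5 (11.1%). Outside the families the shares were 46.2%, 45.3% and 8.52% of 634. By strand-folded class, 16 were C-to-T and 16 T-to-C, so 32 of 45 were transitions. Over all single-base changes, transitions made up 65.2% of the 69 in the families and 59.4% of the 641 outside them. The Wilson intervals, 53.4% to 75.4% for the families and 55.6% to 63.2% outside them, overlapped. The order depended on the genotypes pooled. In KT tumours the shares were 67.2% of 64 in the families and 69.7% of 462 outside them. In KPT tumours they were 2 of 5 and 33.0% of 179.

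The remaining records of KT tumour 1 in the cluster are given here to account for them. Olfr876 carried M227I (58 of 114 reads), Olfr887 T57R (95 of 198 reads) and Olfr921 P79T (35 of 79 reads). Olfr922 carried S137F on 22 of 75 reads, the lowest share in the cluster. Olfr26 carried E16G (34 of 61 reads), Olfr27 L105V (51 of 104 reads) and Olfr943 N9H (34 of 71 reads). Olfr44 carried F146S (45 of 92 reads) and A128V (44 of 93 reads), which lie 54 bases apart, and Olfr967 carried T75I (68 of 131 reads).

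In KT tumour 3, Olfr160 carried L284F (51 of 87 reads) and I37V (35 of 64 reads), the only records there listed above 50%. Olfr902 carried R23L and G254R, listed at 32.4% and 38.8%, and Olfr906 carried V265A and W311L, listed at 47.9% and 46.9%. Olfr875 carried I62L and H226Y, listed at 41.6% and 44.3%, and Olfr965 carried T160I and F202L, listed at 46.2% and 46.3%. In each of these 5 genes the pair of fractions differed by at most 6.40 percentage points. In KT tumour 1 the fractions spanned 18.4 points in Olfr891 and 10 points in Olfr957, against 0.8 points in Olfr44. Olfr874, Olfr890, Olfr143, Olfr25, Olfr898, Olfr908, Olfr916, Olfr150 and Olfr970 had 1 record each, at 32.4% to 50%. Olfr908 is annotated as a polymorphic pseudogene, and is the only family gene not annotated as protein coding.

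Outside chromosome 9, olfactory receptor records were few. Olfr267 on chromosome 4 carried M300V in KT tumour 1 on 68 of 74 reads, listed at 90.2%, the only Olfr record above 80%. Olfr1423 carried C28F (23 of 47 reads) and Olfr1428 F227S (28 of 50 reads) on chromosome 19 of KT tumour 4. Olfr522 carried D85G (4 of 11 reads) and Olfr523 I166T (11 of 17 reads) on chromosome 7 of KT tumour 5. These pairs also lay near each other, 72.2 kb and 13.9 kb apart.

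The single vomeronasal record was Vmn2r34 N376D in KT tumour 3, on 6 of 12 reads. At 12 reads its Wilson interval ran from 25.4% to 74.6%.

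Olfactory receptor sites of the chromosome 9 cluster were read more deeply than other listed sites. In KT tumour 1 their median depth was 82 reads (38 to 198), against 29 at the tumour's 200 records outside the families. In KT tumour 3 it was 84 reads (45 to 184), against 23.5 at 64 such records. Of those other records, 8 of 200 and 3 of 64 were as deep as the cluster's median. Against other records of the same chromosome the contrast remained, with medians of 35 reads in KT tumour 1 and 28 in KT tumour 3. Depth outside the cluster did not follow one pattern. Olfr267 in KT tumour 1 had 74 reads (other records, median 29), and the Olfr sites of KT tumour 4 had 47 and 50 (median 30). Those of KT tumour 5 were below their tumour's other records, with 11 and 17 reads (median 21).

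**Figure D3:**
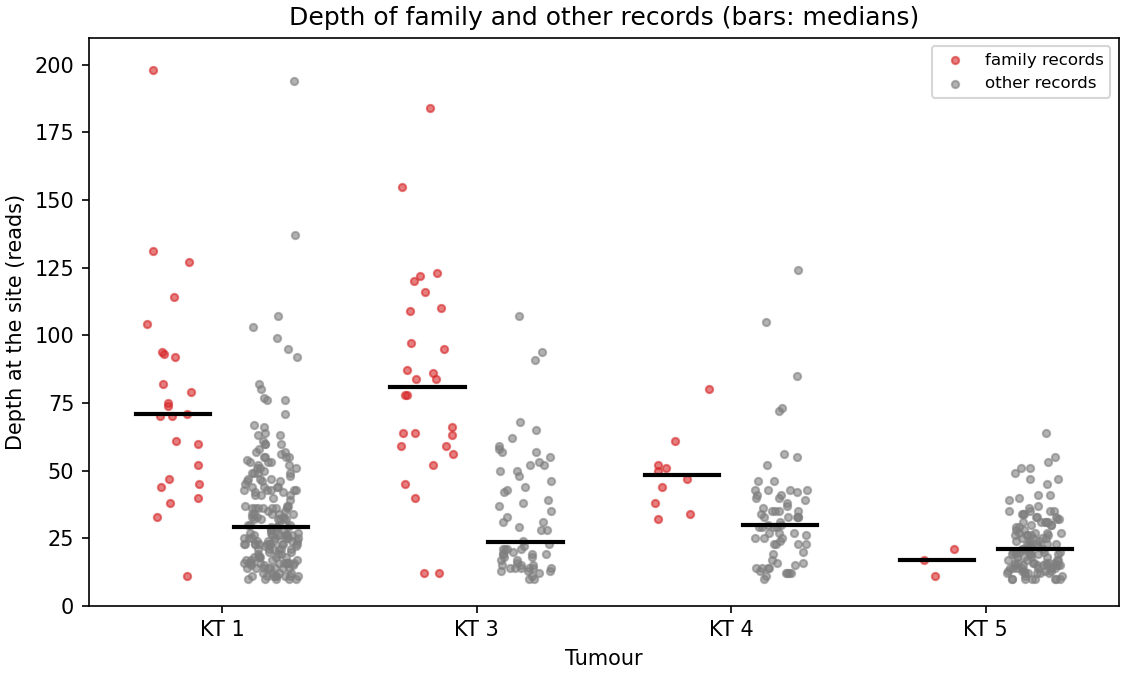
Depth in reads (vertical axis) at each family record (red, left) and each other record (grey, right) of the 4 tumours with at least 3 family records, with medians as black bars. Family medians are above the others in KT tumours 1, 3 and 4, at 71, 81 and 48.5 reads against 29, 23.5 and 30, and below in KT tumour 5, at 17 against 21.

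The authors' mark for poor mappability was frequent among these sites. It was given for KT tumour 1, where 10 of the 17 cluster records carried it, and not for KT tumour 3. The 10 marked records had a median depth of 98.5 reads (61 to 198) and a median fraction of 49.1% (41.0% to 54.8%). The 7 unmarked ones had 60 reads (38 to 94) and 51.0% (31.4% to 57.5%). Fractions thus overlapped between marked and unmarked sites. Among the tumour's records outside the families, the 10 marked had a median depth of 27 reads and the 190 unmarked 29. Whether reads from neighbouring copies contributed to depth or to variant reads was not tested.

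The clade B serpin variants were on nearly every read. All 7 Serpinb records lay in KT tumour 4, on chromosome 1 between positions 107047565 and 107274993, a stretch of 227 kb. RefSeq has 4 coding Serpinb genes within 10 kb of it, Serpinb3a, Serpinb3b, Serpinb3c and Serpinb3d, and all 4 had a record. These genes are the mouse relatives of the human squamous cell carcinoma antigen genes, which encode inhibitors of intracellular and lysosomal proteases.

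Serpinb3c carried P208L on 60 of 61 reads, V172A on 51 of 52 and D95G on 33 of 34. Serpinb3b carried C385S on 80 of 80 reads and E67K on 38 of 38. Serpinb3a carried M171L on 50 of 51 reads and Serpinb3d M274L on 44 of 44. In all, 4 of 360 reads carried the reference base (1.11%, Wilson interval 0.433% to 2.82%), and listed fractions ran from 94.7% to 98.6%. C385S of Serpinb3b, a codon change of tGc to tCc, had the highest fraction of any family record.

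All 7 serpin records were marked as poorly mappable, against 4 of the 69 records outside the families in that tumour. Their median depth was 51 reads, against 30 at those records. The stretch of closely spaced records that held them had 1 further record, in Pign, which was not marked and was listed at 97.4% on 43 reads. That unmarked record was thus also carried by nearly all reads.

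Cytochrome P450 genes had 5 records, 1 in a KPT tumour and 4 in KT tumours. Cyp2c70, the enzyme that makes muricholic bile acids in mouse liver, carried G27W in KPT tumour 3 on 3 of 11 reads, listed at 25%. In KT tumour 1, 3 drug-oxidising Cyp2d genes on chromosome 15 had 1 record each, within 419 kb. Cyp2d11 carried V483A on 44 of 70 reads and Cyp2d22 carried H327Y on 18 of 44 reads, both marked as poorly mappable. Cyp2d26 carried S263L on 26 of 45 reads and was not marked. The 3 fractions, 61.2%, 38.7% and 56.5%, lay on both sides of the median of 49.45% at the 26 other records close by. Cyp17a1, the steroid hydroxylase and lyase of androgen synthesis, carried S284N in KT tumour 4 on 23 of 32 reads, listed at 70.9%.

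Zinc finger genes had 8 records in 6 genes, 2 in KPT tumour 4 and 6 in KT tumours. Zfp292, which encodes a zinc finger transcription factor, carried both KPT records, C1690R on 23 of 36 reads and N1013S on 29 of 49 reads. They lay 2.03 kb apart on chromosome 4 and were listed at 61.2% and 55.6%. None of the 6 Zfp records with a mappability mark given was marked as poor.

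On the X chromosome, KT tumour 1 had 3 Zfp records in 2 genes with no reference read among 114. Zfp185 carried Q315L on 33 of 33 reads and A411P on 70 of 70, listed at 96.7% and 98.5%. Zfp185 is known as a LIM domain protein of the actin cytoskeleton, so its prefix does not give its role. Zfp92, a zinc finger gene, carried Y314C on 11 of 11 reads, listed at 91.2%. Of the tumour's 10 X-linked records outside the families, 8 were above 80% as well.

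The other Zfp records were single. Zfp957 carried a frameshift at residue 293 in KT tumour 2 on 34 of 34 reads, listed at 97.2%. It was the only family record among that tumour's 13 records. Zfp770 carried W142R in KT tumour 1 on 16 of 40 reads. Zfp689 carried L191M in KT tumour 3 on 3 of 12 reads, at the table's lowest listed fraction of 25%.

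Both keratin records were in KPT tumours and rested on few reads. Krt2, a keratin of the epidermis, carried R633S in KPT tumour 2 on 3 of 12 reads, listed at 28.3% and marked as poorly mappable. Krt26, a keratin of the hair follicle, carried G78W in KPT tumour 3 on 2 of 10 reads, listed at 27.3%. With the wide intervals of such depths (8.89% to 53.2% for Krt2), their fractions are not precise.

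Muc1, the transmembrane mucin of ductal epithelium, carried V308D in KT tumour 5 on 12 of 21 reads. Pcdha1, a protocadherin of the alpha cluster on chromosome 18, carried an in-frame insertion at residue 13 in KT tumour 3, on 9 of 40 reads. Only 1 of these 9 variant reads was counted by read orientation, so both orientations could not be seen. The 71 other records of the 72 had variant reads in both. The insertion was listed at 34.9%, 12.4 percentage points above its share of variant reads, the widest such gap among family records. The gap exceeded 5 points in 2 others, Zfp92 and Krt26.

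**Figure D4:**
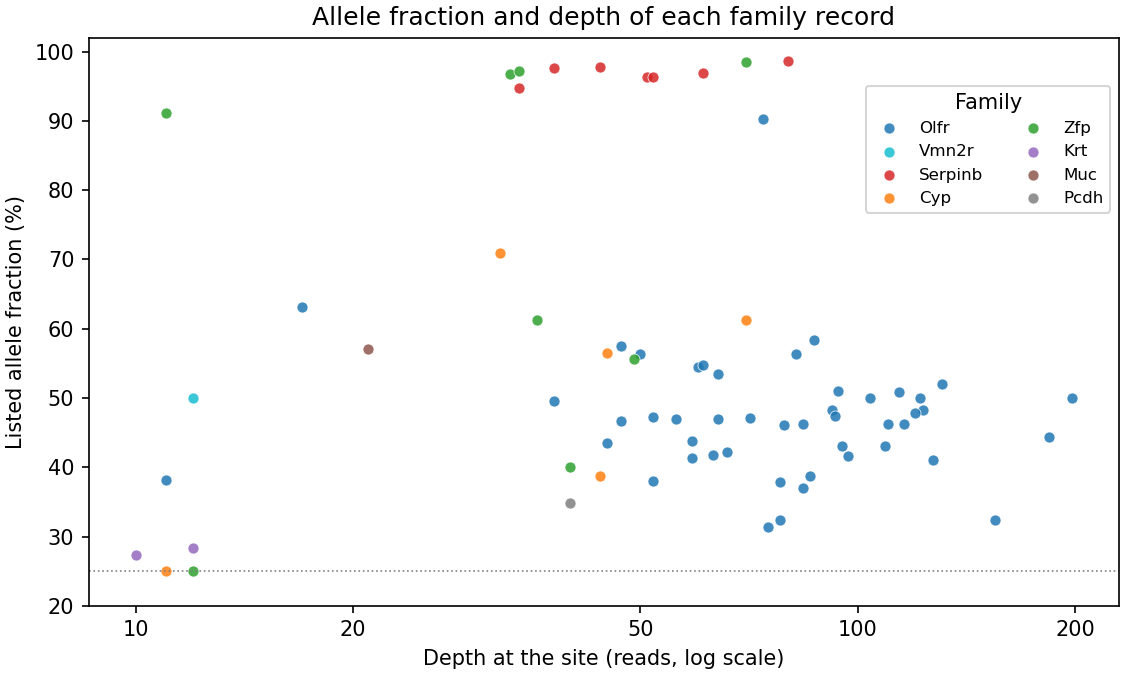
Listed allele fraction (vertical axis, percent) of the 72 family records against depth at the site (horizontal axis, reads, log scale), coloured by family, with a dotted line at 25%, the lowest fraction in the table. The 12 records above 80% are 7 Serpinb, 4 Zfp and 1 Olfr, and the keratin records and the lowest Zfp and Cyp records sit at 10 to 12 reads.

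Family records thus fell into separate ranges of allele fraction. No record lay between 70.9% and 90.2%. Above that gap were 12 of the 72 records (16.7%), with 10 reference reads of 582, and outside the families 77 of 667 records (11.5%) were above 80%. The 4 lowest fractions, 25% to 28.3%, belonged to the 4 records with at most 3 variant reads, in Cyp2c70, Krt26, Krt2 and Zfp689, and all 4 were C-to-A changes. Outside the families, 84 of 106 substitutions with at most 3 variant reads were C-to-A as well (79.2%), and in KPT tumours, which held 3 of the 4, C-to-A made up 96 of the 179 other substitutions (53.6%).

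The KPT tumours had fewer family records on average, within the spread of the KT tumours. KPT tumours 1 to 4 held 0, 1, 2 and 2 family records, against 25, 1, 28, 10, 3, 0 and 0 in KT tumours 1 to 7. The mean was 1.25 ± 0.957 in KPT tumours (SD, n = 4) and 9.57 ± 12.1 in KT tumours (SD, n = 7), a difference of -8.32. The KPT range lay within the KT range, so the groups overlapped. No test was made on these sums, because the families were chosen with results of these data known. With records in runs left out, a run being 3 or more listed positions in a tumour that are each within 2 Mb of the next, the difference was 0.0357 records. Without KT tumour 3 it was -5.25.

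The share of each tumour's records also overlapped between the genotypes. Family records made up 0%, 2.94%, 3.17% and 2.78% of the 19, 34, 63 and 72 records in KPT tumours 1 to 4. They made up 11.1%, 7.69%, 30.4%, 12.7%, 2.26%, 0% and 0% of the 225, 13, 92, 79, 133, 6 and 3 records in KT tumours 1 to 7. The mean share was 2.22% ± 1.49 in KPT tumours (SD, n = 4) and 9.16% ± 10.7 in KT tumours (SD, n = 7), a difference of -6.94 percentage points. Without KT tumour 3 the difference was -3.40 points, with records in runs left out -0.932 points, and at a depth of at least 20 reads -11.0 points. The zeros of KPT tumour 1, KT tumour 6 and KT tumour 7 have upper Wilson limits of 16.8%, 39.0% and 56.1%, for counting error only.

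The few family records of KPT tumours varied in depth. The 5 in KPT tumours had a median depth of 12 reads and 3 of them had at most 3 variant reads, against a median of 64 reads and 1 of 67 in KT tumours. Records outside the families differed in the same direction. At most 3 variant reads were found in 83 of 183 in KPT tumours (45.4%) and 26 of 484 in KT tumours (5.37%). Their pooled median depths were 13 and 26 reads. By tumour, records outside the families had median depths of 38, 23, 11 and 13 reads in KPT tumours 1 to 4, against 29, 14.5, 23.5, 30, 21, 18 and 58 in KT tumours 1 to 7, so the genotypes overlapped. The family records of KPT tumour 4, with 36 and 49 reads, were deeper than the 3 of KT tumour 5, with 11 to 21. The 3 thinly read family records in KPT tumours came from tumours 2 and 3.

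Set beside all other records of the table, family records were marked more often and lay more often in runs. Records of a stretch are not independent, so the shares are descriptions. In tumours with marks given, 20 of 43 family records were marked as poorly mappable (46.5%, Wilson interval 32.5% to 61.1%), against 32 of 588 others (5.44%, 3.88% to 7.58%). By family the count was 10 of 22 for Olfr, 7 of 7 for Serpinb and 3 of 14 for the rest. In KT tumour 1 the mark was on 48% of family records and 5% of others, and in KT tumour 4 on 70% of family records and 5.80% of others. In KT tumour 5 it was on 0 of 3 family records and 6.15% of others. In KPT tumours 2, 3 and 4 the mark was on 1 of 1, 0 of 2 and 0 of 2 family records. Records of further multigene families outside the rule, 18 in 12 genes, were marked in 2 of 12 cases.

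Family records often lay in runs and in last exons. In all, 64 of 72 lay in runs (88.9%), against 448 of 667 others (67.2%). Within genotypes the counts were 2 of 5 family records and 34.4% of others in KPT tumours, and 92.5% of family records and 79.5% of others in KT tumours. The pooled difference of 21.7 points was 12.8 without KPT tumours 3 and 4 and 12.02 with at least 5 variant reads. In KT tumour 3 it was 25 of 28 family records and 87.5% of others. All 47 Olfr records lay in runs, while for the remaining families it was 17 of 25, or 68%. Of family records 57 of 72 lay in the last exon of their gene (79.2%), against 144 of 667 others (21.6%). The last exon held all 47 Olfr records, whose coding exon is the last, and 10 of the 25 records of the remaining families (40%, Wilson interval 23.4% to 59.3%).

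Within a tumour, family records had no common shift in allele fraction. Their median fraction minus that of the tumour's other records was 3.05 percentage points in KT tumour 1, -6.35 in KT tumour 3, 48.85 in KT tumour 4 and 6.35 in KT tumour 5, the tumours with at least 3 family records. The mean of these differences was 13.0 ± 24.5 points (SD, n = 4), and it was 1.02 points without KT tumour 4, the tumour with the serpin records. The corresponding differences in depth were 42, 57.5, 18.5 and -4 reads, with a mean of 28.5 ± 27.0 (SD, n = 4).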

How the data were processed

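Exomes were captured from linked-read libraries of tumour DNA, per the labels' protocols. Per the submitters' processing notes, GATK, HISAT2 2.0.4, mm10 and GRCm38 were used, with roles not stated. The variant caller, its filters and any matched normal tissue are not given in the sources used here. Per the file headers, the deposited depth is in counts of reads, and the deposited allele fraction is a fraction, printed in percent. The other deposited columns, per the file headers, hold reference and variant reads, read orientation, positions, consequence and a mappability mark, empty for KT tumours 2, 3 and 7. Reference and variant read counts added up to the depth in 739 records, which had at least 10 reads.

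Families were matched by symbol prefix, and 53 of 53 symbols and 72 of 72 positions fell in the RefSeq genes of GRCm38.p6. The members and lists were chosen with earlier results of these data known, so sums over members have no p. Two-sided Fisher's exact tests per gene, adjusted by Benjamini-Hochberg, used the whole table. All 14 genes tested had records in exactly 2 tumours, where this test cannot give a p below 0.109. The labels do not say that replicate numbers pair animals. Wilson intervals (95%) cover counting error only, and the total depth per library is unknown. The labels list tumours by genotype and number, with 1 sample each. Named genes were those in at least 2 tumours, with at least 3 records in a tumour, truncating or in-frame indel changes, most records in a family, or the 3 highest and lowest fractions, and the others were added to account for every member. Runs (at least 3 positions, gaps of at most 2 Mb) were defined with the data known. An engineered allele common to both genotypes is not reported here. A planned comparison with residues of paralogous proteins was not run, since no protein sequences were used here. Software was SciPy 1.17.1, pandas 2.3.3 and Matplotlib 3.10.9 with NumPy 2.4.6 in Python 3.11.15.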

Additional observations from a re-analysis of the deposited data

Results flagged for a closer look

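Of 6 sets of tumour values looked at for a value far from the rest of its genotype (family records, family shares, median fractions and median depths where 4 or more tumours had one), 2 held such a value. The cut-off used flags about 1 in 20 sets of independent values with a normal distribution. These sets include counts and shares of the same tumours, so 2 of 6 cannot be read as an excess. KPT tumour 1 stood apart at a family share of 0% of 19 records, below the 2.78% to 3.17% of the 3 other KPT tumours. The upper Wilson limit of its share is 16.8%. KT tumour 3 stood apart at a family share of 30.4% of 92 records, above the 12.7% of the next KT tumour. Its 25 olfactory receptor records of chromosome 9 alone were 27.2% of its records.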

How the results depend on the processing

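The alternatives were leaving out each tumour or KPT tumours 3 and 4, at least 5 variant reads, a depth of at least 20 reads, 1 record per gene and tumour, and leaving out Zfp, Cyp, Krt, Muc and Pcdh. Leaving out Olfr or Serpinb, all alternatives for depth and runs, and the depth and run differences themselves were chosen after seeing the data. The difference in family records per tumour (KPT minus KT, -8.32) kept its sign in 20 of 21 alternatives. In these it moved by less than the spread between tumours (SD 9.89 records). That spread is larger than the difference itself, so the count says little about stability. Without the records in runs the difference turned to 0.0357, and the difference in share was -0.932 points. Leaving out 1 tumour at a time gave -9.92 to -5.25 records, -8.47 to -3.40 percentage points of share, 1.02 to 19.4 points of allele fraction, 34.0 to 44.8 points of poor mappability and 18.8 to 39.3 reads of depth. With medians in place of means the differences were -1.5 records and -4.83 points of share. Without Olfr they were -1.61 records and -1.59 points, the depth difference was 7 reads, and the difference in the share of records in runs, 21.7 points, was 0.834 points; that difference was 12.8 points without KPT tumours 3 and 4, 12.02 with at least 5 variant reads, 14.2 with sites under 20 reads left out and 31.0 without Zfp, Cyp, Krt, Muc and Pcdh. Without sites under 20 reads the difference in the family share of records was -11.0 points. Without Serpinb the difference in allele fraction was 2.96 points. The replicate block, pairing tumours 1 to 4 by number, gave -14.75 records, -13.3 points of share and 0 genes by the exact sign test; the numbers are not stated to pair animals. Fisher's test called 0 genes under its 12 other alternatives, which says nothing about stability, since no gene in 2 tumours can go below p = 0.109 here. The comparison with paralogous residues was not run. Depth limits single fractions most at the sites with 10 to 12 reads, where the keratin, Vmn2r34, Cyp2c70, Zfp689, Olfr522 and Zfp92 records lie.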
